A study of Mus musculus with 20 samples.

Results

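The genes described here are the main xenobiotic cytochrome P450s of mouse liver, the reductase that serves them and nuclear receptors that govern some of them: Cyp2b10 (ENSMUSG00000030483), Cyp3a11 (ENSMUSG00000056035), Cyp1a1 (ENSMUSG00000032315), Cyp1a2 (ENSMUSG00000032310), Cyp2e1 (ENSMUSG00000025479), Por (ENSMUSG00000005514), Nr1i3 (ENSMUSG00000005677) and Nr1i2 (ENSMUSG00000022809). They were picked by Ensembl identifier from the 22361 genes of the deposited table, and all 8 were present. Their symbols came with that list of identifiers, since the table itself holds no symbols. Levels were measured in liver RNA of female C57BL/6 mice on 20 arrays, in 5 groups of 4 that the titles call biological replicates. Mice received the antisense oligonucleotide SPC4955 at 10 mg/kg, SPC3833 at 5 mg/kg, SPC4061 at 10 mg/kg, SPC3847 at 10 mg/kg, or saline, into a vein on 3 consecutive days. Antisense oligonucleotides are synthetic strands that bind RNAs of complementary sequence, and these are known here by code name alone. Collection is placed 3 days after the first dose by the treatment protocol and 4 days after it by the sample source. The study asked which genes change in liver relative to saline.

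Cytochrome P450s are haem enzymes of the endoplasmic reticulum that oxidise drugs, toxins and steroids, and liver holds most of them. Foreign compounds raise them through receptors. Nr1i3 encodes CAR and Nr1i2 encodes PXR, nuclear receptors that bind DNA together with a retinoid X receptor; in mice Cyp2b10 is the usual marker of CAR activity and Cyp3a11 that of PXR activity. Cyp1a1 and Cyp1a2 are the textbook targets of the aryl hydrocarbon receptor (AHR). Cyp2e1 oxidises ethanol and other small molecules, and Por passes electrons from NADPH to all of these P450s.

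The level of a gene is its deposited log2 intensity, on which a difference of 1 is a 2-fold change. All 22361 genes were fitted together with limma, each with 1 mean for every group, and a gene was called at a Benjamini-Hochberg adjusted p below 0.05. Array medians lay between 6.37 and 6.53 and quartile ranges between 2.70 and 3.21. Saline replicate 1, SPC4955 replicate 1 and SPC3847 replicate 4 lay farthest from their group means, with an SD of deviations over all genes of 0.236 for SPC4955 replicate 1, 0.227 for SPC3847 replicate 4 and 0.270 for saline replicate 1, against 0.101 to 0.169 for the other arrays. Liver and other cell type markers could not be looked up for lack of symbols. In whole tissue, fewer cells of a type and less RNA per cell cannot be told apart.

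Across the 5 groups, Nr1i3 and Cyp1a2 differed and the other 6 genes did not pass the test. The moderated F test gave an adjusted p of 0.0022 for Nr1i3 and 0.00224 for Cyp1a2, and 23.8% of all genes were called by it, a share close to 2 of 8. Adjusted p was 0.0724 for Nr1i2, 0.10 for Por, 0.315 for Cyp3a11, 0.509 for Cyp2e1, 0.673 for Cyp2b10 and 0.934 for Cyp1a1. Without SPC4955 replicate 1, Cyp2b10 (adjusted p = 0.033) and Nr1i2 (0.0411) passed as well. Cyp2b10 also passed without both SPC4955 replicate 1 and saline replicate 1 (0.0339). Nr1i2 also passed without SPC4955 replicate 3 (0.038) and after quantile normalization (0.0419). Of the 32 tests against saline, 1 passed, where between 3.33% and 11.5% of all genes were called in each comparison. Group means spanned 0.72 on the log2 scale for Nr1i3 and 0.43 for Cyp1a2, against 0.09 for Cyp2e1 and 0.10 for Cyp1a1.

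**Figure D1:**
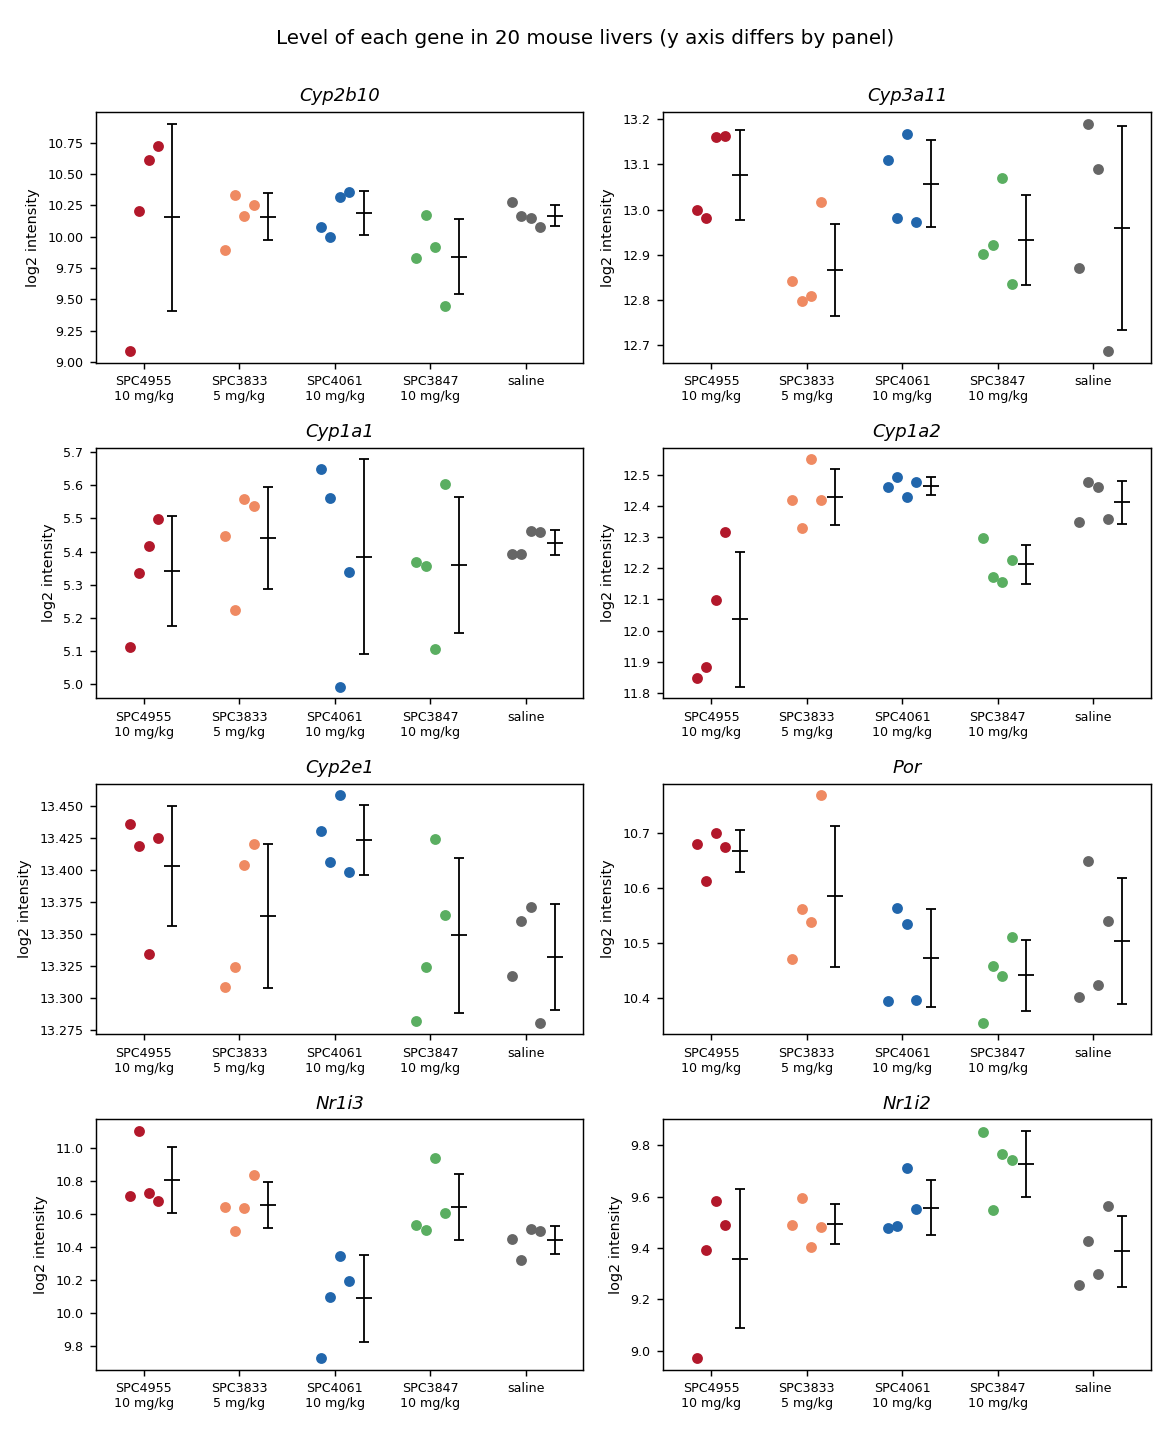
Log2 intensity (y axis, scaled for each gene) of the 8 genes in each of the 20 livers (points), by group, with the group mean and SD to the right of the points (n = 4). Nr1i3 is lowest with SPC4061, Cyp1a2 is lowest with SPC4955, and 1 SPC4955 liver has the lowest Cyp2b10, at 9.08.

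The promoter windows of the pair of Cyp1a genes and of both receptors are shown because Cyp1a2, Nr1i3 and Nr1i2 carry the differences described next, and Cyp1a1 is the neighbour of Cyp1a2. No protein-coding gene lies between Cyp1a1 and Cyp1a2 on chromosome 9 in the RefSeq gene table (GRCm38.p6). Each window runs 5′ to 3′ from 250 bases before the RefSeq start of the gene to 50 bases after it, in the gene's own direction. Capitals mark GCGTG (the core of the AHR response element), AGGTCA (the half-site of many nuclear receptors) and TATAAA (the TATA box), searched on both strands.
Cyp1a1, chr9:57697363-57697662, plus strand: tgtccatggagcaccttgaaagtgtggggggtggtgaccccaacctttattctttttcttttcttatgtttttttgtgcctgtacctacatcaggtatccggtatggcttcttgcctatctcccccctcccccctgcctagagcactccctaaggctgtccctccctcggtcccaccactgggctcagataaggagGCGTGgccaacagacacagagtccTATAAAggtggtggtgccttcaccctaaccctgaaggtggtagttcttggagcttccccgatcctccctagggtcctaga
Cyp1a2, chr9:57683606-57683905, minus strand: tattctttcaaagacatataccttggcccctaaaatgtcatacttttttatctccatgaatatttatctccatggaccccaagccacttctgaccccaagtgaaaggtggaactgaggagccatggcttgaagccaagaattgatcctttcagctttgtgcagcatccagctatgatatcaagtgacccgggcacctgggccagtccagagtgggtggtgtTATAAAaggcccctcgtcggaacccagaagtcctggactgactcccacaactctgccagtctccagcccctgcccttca
Nr1i3, chr1:171213720-171214019, plus strand: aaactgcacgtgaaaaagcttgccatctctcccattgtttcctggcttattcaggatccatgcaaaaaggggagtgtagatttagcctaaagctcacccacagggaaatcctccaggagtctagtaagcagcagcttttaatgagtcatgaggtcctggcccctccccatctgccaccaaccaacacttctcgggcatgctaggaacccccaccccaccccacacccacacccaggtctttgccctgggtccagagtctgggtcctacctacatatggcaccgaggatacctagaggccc
Nr1i2, chr16:38294775-38295074, minus strand: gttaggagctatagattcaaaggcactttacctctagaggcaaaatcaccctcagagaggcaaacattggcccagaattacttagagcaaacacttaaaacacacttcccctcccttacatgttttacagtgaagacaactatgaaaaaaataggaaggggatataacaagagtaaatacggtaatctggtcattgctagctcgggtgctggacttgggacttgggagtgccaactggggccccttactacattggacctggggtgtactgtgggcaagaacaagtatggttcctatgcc

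Windows were found for all 8 genes by symbol, and their 11 matches did not overlap each other. GCGTG was found in 3 of the 8 windows, 1 match for Cyp1a1, 2 for Cyp2b10 and 3 for Por, and in 32.4% of all 32851 windows. TATAAA was found in 4 of the 8, and in 13.6% of all windows; it began 30 bases before the start in Cyp1a1, 29 in Cyp1a2 and 31 in Cyp2e1, the usual place of a TATA box, but 234 before it in Cyp3a11. AGGTCA was found once, 162 bases before the start of Cyp3a11, and in 16.3% of all windows. The windows of Nr1i3 and Nr1i2 held none of the 3 motifs. Sites outside the windows were not searched, so an absence holds for the windows alone. A match is a string of letters and not a measured binding site.

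Nr1i3, the gene of the receptor CAR, had its lowest mean with SPC4061 and its highest with SPC4955. Its log2 intensity was 10.71, 11.11, 10.73 and 10.68 with SPC4955, 10.65, 10.50, 10.64 and 10.84 with SPC3833, 9.72, 10.10, 10.34 and 10.19 with SPC4061, 10.53, 10.51, 10.94 and 10.61 with SPC3847, and 10.45, 10.32, 10.51 and 10.50 with saline. All SPC4955 livers were above all saline livers, and 3 of the 4 SPC4061 livers were below all of them. The mean was 10.81 ± 0.20 with SPC4955 and 10.44 ± 0.09 with saline (SD, n = 4 each), a difference of 0.36 (95% interval 0.10 to 0.62) that did not pass (limma adjusted p = 0.0972). With SPC4061 it was 10.09 ± 0.26, or 0.36 below saline (interval -0.62 to -0.09), and this did not pass either (limma adjusted p = 0.0737). The second difference passed after quantile normalization (-0.41, limma adjusted p = 0.0377) and without SPC4061 replicate 3 (-0.44, limma adjusted p = 0.039). Removing SPC4061 replicate 1, the lowest liver, left -0.23 (limma adjusted p = 0.213). Against saline, SPC3833 stood at 0.21 (interval -0.05 to 0.47) and SPC3847 at 0.20 (interval -0.06 to 0.46).

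With 10 mg/kg of each, SPC4061 differed in Nr1i3 from both of the others. Nr1i3 was 1.64-fold higher with SPC4955 than with SPC4061 (log2 difference 0.72 ± 0.12, SE; limma adjusted p = 0.000679), and the livers did not overlap. It was 1.47-fold lower with SPC4061 than with SPC3847 (-0.56 ± 0.12, SE; limma adjusted p = 0.00942), again without overlap. SPC4955 and SPC3847 differed by 0.16 (interval -0.10 to 0.42; limma adjusted p = 0.521), with overlapping livers. The difference between SPC4955 and SPC4061 passed under all 18 alternatives, with values from 0.60 to 0.80. That between SPC4061 and SPC3847 passed under 17 of 18, and missed the threshold in a fit of only those 8 arrays (limma adjusted p = 0.0597).

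Nr1i2, the gene of the receptor PXR, followed another order, with its highest mean with SPC3847. Single livers had log2 intensities of 8.97, 9.39, 9.58 and 9.49 with SPC4955, 9.49, 9.59, 9.40 and 9.48 with SPC3833, 9.48, 9.49, 9.71 and 9.55 with SPC4061, 9.85, 9.55, 9.77 and 9.74 with SPC3847, and 9.26, 9.43, 9.30 and 9.57 with saline. Of the SPC3847 livers, 3 were above every saline liver and 1 lay within their range. SPC3847 was 0.34 above saline (interval 0.11 to 0.57; limma adjusted p = 0.0968), and the other oligonucleotides were between -0.03 and 0.17 from it. Between oligonucleotides, Nr1i2 was 1.29-fold lower with SPC4955 than with SPC3847 (-0.37 ± 0.11, SE; limma adjusted p = 0.0409), and the livers overlapped. This call was kept in 8 of 18 alternatives. It was lost without SPC4955 replicate 1 (-0.24, limma adjusted p = 0.132), the liver with the lowest Nr1i2 of all 20, and without SPC4955 replicate 2, SPC3847 replicate 1, 3 or 4 (limma adjusted p between 0.075 and 0.0949). SPC4061 differed from SPC3847 by -0.17 (interval -0.40 to 0.06) and SPC4955 from SPC4061 by -0.20 (interval -0.42 to 0.03).

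Cyp1a2, which metabolises caffeine and aromatic amines, was lower with SPC4955 and was the only one of the 8 genes called against saline with any oligonucleotide. Its log2 intensity was 11.85, 11.88, 12.10 and 12.32 with SPC4955, 12.42, 12.33, 12.55 and 12.42 with SPC3833, 12.46, 12.49, 12.43 and 12.48 with SPC4061, 12.30, 12.17, 12.16 and 12.23 with SPC3847, and 12.35, 12.48, 12.46 and 12.36 with saline. All SPC4955 and all SPC3847 livers lay below every saline liver. The mean was 12.04 ± 0.22 with SPC4955 and 12.41 ± 0.07 with saline (SD, n = 4 each), a fall of 1.30-fold (log2 change -0.38 ± 0.08, SE; limma adjusted p = 0.00795). The fall passed under 17 of 18 alternatives, with values from -0.47 to -0.31, and missed the threshold in a fit of only those 8 arrays (limma adjusted p = 0.0962). The spread of Cyp1a2 was 0.22 (SD) with SPC4955 and 0.03 to 0.09 in the other groups. Pooled over the groups, as in the full fit, it was 0.11, smaller than that of the SPC4955 livers. The part of this pooling in the call was not tested. With SPC3847 Cyp1a2 was 1.15-fold lower than with saline without passing (-0.20, interval -0.37 to -0.03; limma adjusted p = 0.235). SPC3833 stood at 0.02 (interval -0.15 to 0.19) and SPC4061 at 0.05 (interval -0.12 to 0.23).

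At the same dose, Cyp1a2 was 1.35-fold lower with SPC4955 than with SPC4061 (-0.43 ± 0.08, SE; limma adjusted p = 0.00174), with no overlap and a call under all 18 alternatives. SPC4061 was 1.19-fold above SPC3847 without overlap, and this did not pass (0.25, interval 0.08 to 0.42; limma adjusted p = 0.0734), though it did with array quality weights (limma adjusted p = 0.0435) and with a trended robust prior (limma adjusted p = 0.045). SPC4955 was 0.18 below SPC3847 (interval -0.35 to -0.01; limma adjusted p = 0.236), and without SPC4955 replicate 4 that difference was -0.27 and passed (limma adjusted p = 0.0252).

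Cyp1a1, the neighbour of Cyp1a2 and the more inducible of the pair through AHR, did not differ past the threshold in any comparison. By liver, the log2 intensity was 5.11, 5.33, 5.42 and 5.50 with SPC4955, 5.45, 5.22, 5.56 and 5.54 with SPC3833, 5.65, 5.56, 4.99 and 5.34 with SPC4061, 5.37, 5.36, 5.11 and 5.61 with SPC3847, and 5.39, 5.39, 5.46 and 5.46 with saline. The saline livers lay within the range of every oligonucleotide group. Changes against saline lay between -0.09 and 0.01, and the widest intervals allowed a fall of 1.27-fold or a rise of 1.21-fold. These levels were close to the first quartile of the arrays (4.95 to 5.24), and between 64.7% and 74.9% of genes were brighter. The signal of these probes over background is not known here.

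**Figure D2:**
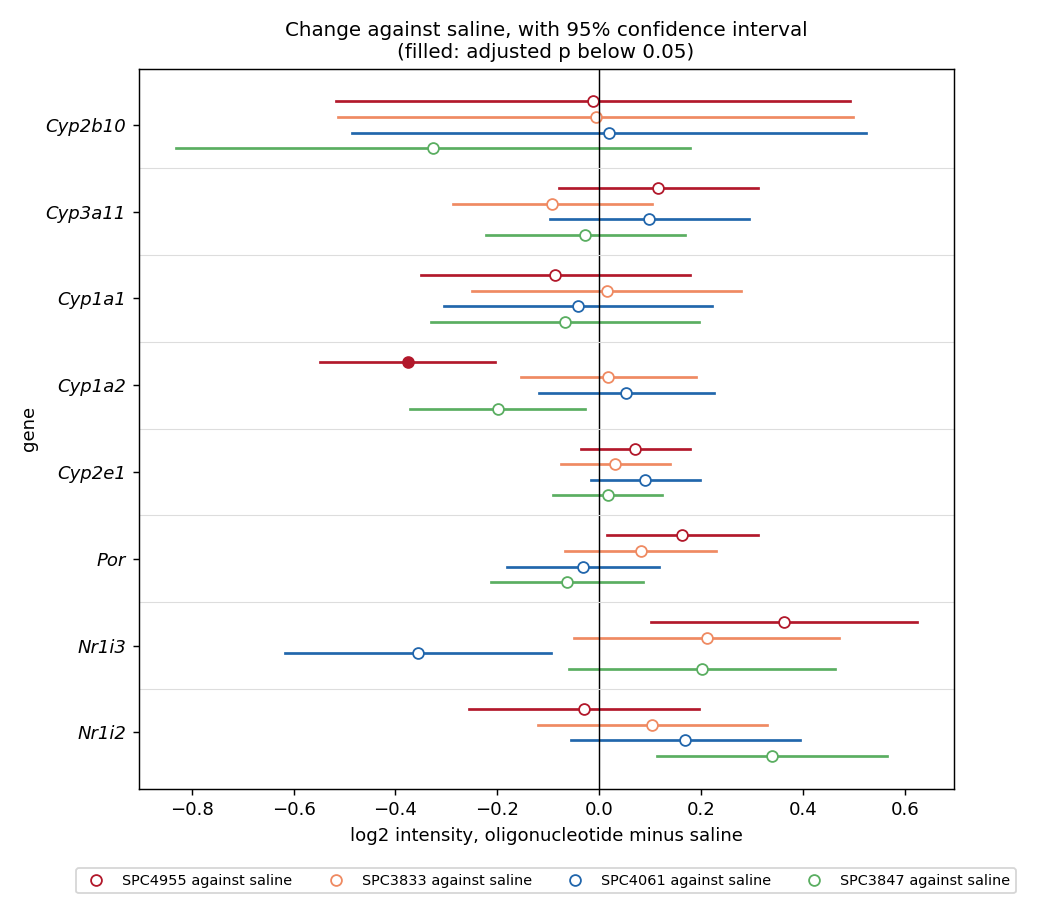
Difference of log2 intensity, oligonucleotide minus saline (x axis), for each gene (rows) and oligonucleotide (colours), as the limma estimate (points) with its 95% interval (lines), n = 4 each. The only filled point, marking an adjusted p below 0.05, is Cyp1a2 with SPC4955 at -0.38.

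Cyp2b10, the marker P450 of CAR, was not called against saline with any oligonucleotide, including those with the highest and the lowest Nr1i3. Its log2 intensity was 9.08, 10.20, 10.61 and 10.72 with SPC4955, 9.90, 10.33, 10.16 and 10.25 with SPC3833, 10.08, 10.00, 10.31 and 10.35 with SPC4061, 9.83, 10.17, 9.92 and 9.44 with SPC3847, and 10.28, 10.17, 10.15 and 10.07 with saline. The SPC4955 group held both the lowest and the highest of the 20 livers. SPC4955 livers averaged 10.15 ± 0.75, SPC3833 livers 10.16 ± 0.19, SPC4061 livers 10.19 ± 0.17, SPC3847 livers 9.84 ± 0.30 and saline livers 10.17 ± 0.08 (SD, n = 4 each). Against saline, SPC4955 stood at -0.01, SPC3833 at -0.01, SPC4061 at 0.02 and SPC3847 at -0.33 (limma adjusted p between 0.627 and 0.992). The intervals left room for changes of up to a 1.44-fold rise and a 1.78-fold fall. Of all genes, 97.8% had a smaller spread within groups than Cyp2b10. That spread was 0.75 (SD) with SPC4955 and 0.08 to 0.30 in the other groups. The fit pools the spread of all 5 groups for each gene. The SPC4955 livers therefore also widened the Cyp2b10 intervals of the other oligonucleotides.

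The low end of the SPC4955 range was set by 1 array. In SPC4955 replicate 1, Cyp2b10 was 2.69-fold below the mean of the other 3 SPC4955 livers, Nr1i2 was 1.43-fold below it, Cyp1a1 1.23-fold and Cyp1a2 1.19-fold. Cyp2e1 and Por in that array differed from the mean of the other 3 by 0.04 and 0.02. This is also an array that stood apart over all genes, and its deviations correlated at 0.517 with those of saline replicate 1. Without it, Cyp2b10 was 0.34 above saline with SPC4955 (limma adjusted p = 0.215) and was higher with SPC4955 than with SPC3847 by 0.67 (limma adjusted p = 0.0104), against 0.31 with it (limma adjusted p = 0.516). Between SPC4061 and SPC3847 the difference was 0.35 (interval -0.16 to 0.85), and between SPC4955 and SPC4061 it was -0.03 (interval -0.54 to 0.47).

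Cyp3a11, the main drug-metabolising P450 of mouse liver and a marker of PXR, was not called in any comparison. The log2 intensities were 13.00, 12.98, 13.16 and 13.16 with SPC4955, 12.84, 12.80, 12.81 and 13.02 with SPC3833, 13.11, 12.98, 13.17 and 12.97 with SPC4061, 12.90, 12.92, 13.07 and 12.84 with SPC3847, and 12.87, 13.19, 13.09 and 12.69 with saline. The saline livers held both the lowest and the highest of the 20 values. Changes against saline lay between -0.09 and 0.12, and the intervals allowed at most a 1.24-fold rise or a 1.22-fold fall. At the same dose the differences lay between 0.02 and 0.14 (limma adjusted p between 0.427 and 0.944).

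Cyp2e1 had the narrowest range of the 8 genes over the 20 livers, at a level near the top of the arrays. Its log2 intensity was 13.44, 13.42, 13.33 and 13.42 with SPC4955, 13.31, 13.32, 13.40 and 13.42 with SPC3833, 13.43, 13.41, 13.46 and 13.40 with SPC4061, 13.28, 13.32, 13.42 and 13.36 with SPC3847, and 13.32, 13.36, 13.37 and 13.28 with saline. All 20 livers fell within 0.18 on the log2 scale, or 1.13-fold, and 0.555% of genes had a smaller spread within groups. The SPC4061 livers all lay above the saline livers, by 0.09 on average (interval -0.02 to 0.20; limma adjusted p = 0.279). The brightest gene of each array had a value between 13.70 and 13.87 and Cyp2e1 and Cyp3a11 lay near it. Whether a ceiling of the signal narrowed their spread or hid a difference was not tested. Between 0.0537% and 0.112% of genes were brighter than Cyp2e1.

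Por, the electron donor shared by these enzymes, showed small differences, none of them called. Livers had log2 intensities of 10.68, 10.61, 10.70 and 10.67 with SPC4955, 10.47, 10.56, 10.54 and 10.77 with SPC3833, 10.39, 10.56, 10.53 and 10.40 with SPC4061, 10.35, 10.46, 10.44 and 10.51 with SPC3847, and 10.40, 10.65, 10.42 and 10.54 with saline. The SPC4955 livers overlapped those of saline but lay above all SPC4061 and all SPC3847 livers. SPC4955 was 0.16 above saline (interval 0.01 to 0.31; limma adjusted p = 0.217), 0.19 above SPC4061 (interval 0.05 to 0.34; limma adjusted p = 0.106) and 0.23 above SPC3847 (interval 0.08 to 0.38; limma adjusted p = 0.0607). The difference from SPC4061 passed in 1 of 18 alternatives, quantile normalization (0.23, limma adjusted p = 0.0493). The difference from SPC3847 passed in 3 of 18 alternatives, with an adjusted p as low as 0.0305 when the width of each array's distribution was a covariate.

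Counted by oligonucleotide, 1 of the 8 genes was called against saline with SPC4955, where 6.59% of all genes were called. By limma, 0 of 8 were called with SPC3833 at 5 mg/kg (7.06% of all genes), SPC4061 (11.5%) and SPC3847 (3.33%). A gene that was not called may still differ. At an unadjusted p below 0.05 SPC4955 had 3 of 8 genes (18.1% of all genes), SPC3833 had 0 (19.3%), SPC4061 had 1 (24.8%) and SPC3847 had 2 (14.7%). Livers did not overlap saline in 2 genes with SPC4955 (11.4% of all genes), 0 with SPC3833 (15.1%), 1 with SPC4061 (18.5%) and 1 with SPC3847 (7.98%). Over the 8 genes the median size of a change was 0.10 for SPC4955 (0.09 over all genes), 0.06 for SPC3833 (0.10), 0.07 for SPC4061 (0.12) and 0.13 for SPC3847 (0.08). The 4 comparisons share the saline livers.

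**Figure D3:**
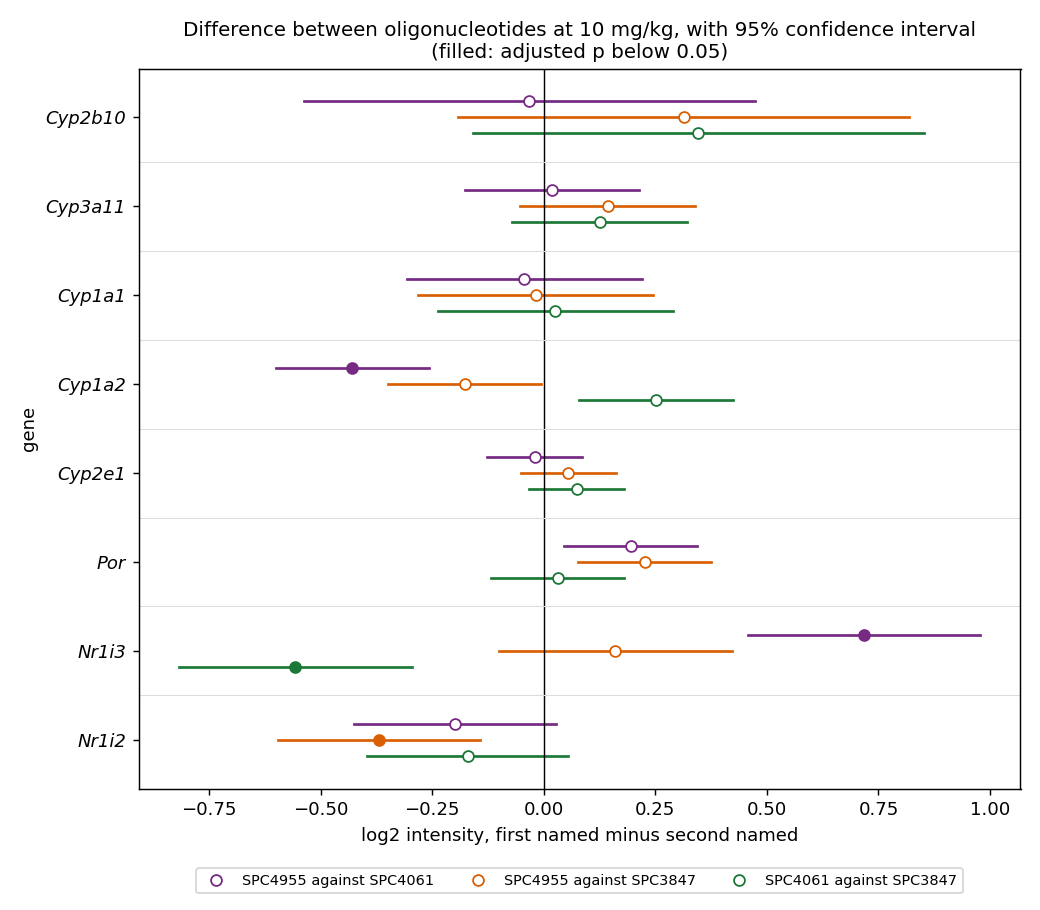
Difference of log2 intensity between the 3 oligonucleotides given at 10 mg/kg, first named minus second named (x axis), for each gene (rows) and pair (colours), as the limma estimate (points) with its 95% interval (lines), n = 4 each. Filled points mark an adjusted p below 0.05: Cyp1a2 at -0.43, Nr1i3 at 0.72 and -0.56, and Nr1i2 at -0.37.

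Of the 24 tests between oligonucleotides given at 10 mg/kg, 3 pairs of 8 genes each, 4 passed. SPC4955 and SPC4061 differed in 2 of the 8 genes, Nr1i3 higher and Cyp1a2 lower with SPC4955 (8.75% of all genes were called). SPC4955 and SPC3847 differed in 1, Nr1i2 (7.55%), and SPC4061 and SPC3847 in 1, Nr1i3 (6.74%). Livers did not overlap in 3 of the 8 genes between SPC4955 and SPC4061 (15.3% of all genes), 1 between SPC4955 and SPC3847 (10.9%) and 2 between SPC4061 and SPC3847 (12.8%). SPC3833 was given at 5 mg/kg, so it was not tested against the others. Its means for Nr1i3 (10.66 ± 0.14, SD, n = 4) and Cyp1a2 (12.43 ± 0.09) stand beside 10.81 and 12.04 with SPC4955, 10.09 and 12.46 with SPC4061 and 10.65 and 12.21 with SPC3847.

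Nr1i3 and Cyp1a2 ran in opposite order over the group means at 10 mg/kg. SPC4955 had the highest Nr1i3 and the lowest Cyp1a2, and SPC4061 the lowest Nr1i3 and the highest Cyp1a2. Over the 20 livers their levels correlated at -0.61, but at -0.28 once each group's mean was subtracted. These are descriptions over arrays that share group and scaling.

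**Figure D4:**
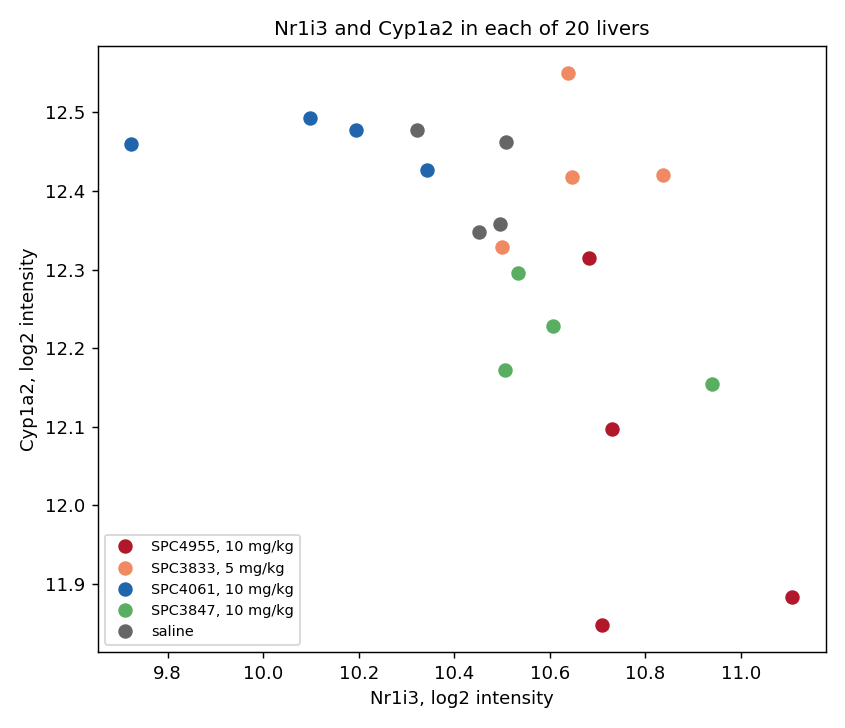
Log2 intensity of Cyp1a2 (y axis) against that of Nr1i3 (x axis) in each of the 20 livers (points), coloured by group. SPC4061 livers lie toward the left with Cyp1a2 of 12.43 to 12.49, and SPC4955 livers toward the right with Cyp1a2 of 11.85 to 12.32. The highest SPC3833 liver (Nr1i3 of 10.84) and SPC3847 liver (10.94) lie within the Nr1i3 range of the SPC4955 livers.

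Other pairs of a receptor and a P450 varied in how they correlated. Over the 20 livers Nr1i3 correlated at -0.06 with Cyp2b10, and Nr1i2 at -0.06 with Cyp3a11. Cyp3a11 and Cyp2e1 had the highest correlation of the 28 pairs, at 0.58, and 0.50 within groups. Both lie near the top of the scale, and their correlation with the quartile range of the array was 0.49 for Cyp3a11 and 0.30 for Cyp2e1; the part of array width in this was not tested. Within groups the strongest correlation of the 28 pairs was that of Cyp2b10 and Nr1i2, at 0.61 (0.20 over the 20 livers without subtracting group means), with SPC4955 replicate 1 lowest in both. Cyp1a1 and Cyp1a2 correlated at 0.51 within groups (0.41 over the 20 livers), and Cyp2b10 and Cyp1a2 at 0.51 (0.36). Nr1i3 and Cyp1a1 correlated at -0.43 within groups. Among all other genes of the table, the one most like Nr1i3 over the 20 livers was ENSMUSG00000026074 (r = 0.89, and 0.61 within groups), and the one most like Cyp1a2 was ENSMUSG00000038217 (r = 0.87, and 0.75 within groups). Neither can be named from the files used here. Among all genes Cyp3a11 ranked 155 by similarity to Cyp2e1, and no other pair of the 8 stood closer.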

How the data were processed

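Biotin-labelled sense targets of total liver RNA were hybridised to 20 Affymetrix arrays of 1 colour, per the labels. The authors deposited log2 intensities, 1 value per Ensembl gene and array. The submitters' processing notes name affy; its version, the background correction, the normalization and the probe assignment were not stated. Near copies of the P450 genes may share probes, which was not tested. The number of arrays limits the precision.

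No further scaling or filter was applied. limma 3.58.1 (R 4.3.3; lmFit, contrasts.fit, eBayes) fitted 22361 genes over all 20 arrays with 15 residual degrees of freedom. Tests were two-sided, with Benjamini-Hochberg adjustment across the whole table. The steps were tested on simulated data. Depending on the oligonucleotide, the fit recovered 19.4% to 31.3% of simulated log2 changes of 0.3 against saline. For changes of 0.5 it recovered 64.2% to 73.1%. Each simulation changed 67 genes by 0.3, 67 by 0.5 and 66 by 1, in the treated livers alone. Noise was normal and independent, with the same spread in every group. Fewer genes changed than were called in the data, which alters the adjusted threshold. These rates are therefore not the sensitivity of the tests reported here. Replicates are called biological by their titles, and the tests set differences of group means against the spread between replicates, pooled over the groups. All 8 genes were tested in every comparison and are drawn in the figures, though not every estimate is written out. The row most like a gene by Pearson's r is given for Nr1i3 and Cyp1a2. The genes and lists were chosen with earlier results of these data known. The Ensembl column of the RefSeq gene table (GRCm38.p6) paired 0 genes, so the planned pathway and marker lists were not used here. Promoter windows came from RefSeq on that build.

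Alternatives were median centring, quantile normalization, leaving out dim rows, weighting the arrays by quality, a trended robust prior, replicate number as a block, each array's interquartile range as a covariate, fitting the 8 compared arrays alone, and leaving out single arrays or those that stood apart.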

Additional observations from a re-analysis of the deposited data

Results flagged for a closer look

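Nr1i3 in SPC4955 replicate 2, at 11.11, stood apart from the other 3 SPC4955 livers (10.68 to 10.73): its gap to the nearest of them was 0.886 of the group's range, above Dixon's 95% critical value for 4 samples. This was 1 of 40 combinations of gene and group examined, and chance flags about 1 in 20. Without that liver, Nr1i3 was 0.26 above saline with SPC4955 (limma adjusted p = 0.313), against 0.36 with it, and 0.62 above SPC4061 (limma adjusted p = 0.00376), against 0.72 with it.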

How the results depend on the processing

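Of 1008 values of single genes under an alternative, 909 kept their direction and their side of the threshold, 12 lost the call, 12 gained one and 75 changed sign, none of these 75 past the threshold before or after. Where a call changed, the cause was not tested, apart from fits of fewer arrays. In a fit of only the 8 arrays compared, 0 of the 8 genes were called for SPC4955 against saline (657 of all genes, against 1473 in the full fit), 0 for SPC4955 against SPC3847 (603, against 1689) and 0 for SPC4061 against SPC3847 (717, against 1507), where the full fit called 1 of the 8 each. For SPC4061 against saline, 1 was called after quantile normalization, and 0 to 1 with each array left out. Under each of these, fewer of all genes were called than in the full fit (2565), and the lowest count was 1663. For SPC4955 against SPC3847, 0 were called after median centring (1120 of all genes, against 1689 in the full fit) and under quality weights (1683). The count was 2 without the dimmest rows (1782), with a trended robust prior (1742) and with the interquartile range as a covariate (2494). Leaving out each array gave 0 to 2 (1168 to 1787 of all genes). For SPC4061 against SPC3847, 2 were called under quality weights (1569 of all genes, against 1507 in the full fit) and with the trended robust prior (1528). Over the 5 groups, 2 to 4 were called with each array left out, the 4 without SPC4955 replicate 1, where 5216 of all 22361 genes were called, against 5329 in the full fit. For SPC4955 against SPC4061, 3 were called after quantile normalization, against 2, the added gene being Por (2223 of all genes, against 1957 in the full fit).

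Whether the replicate numbers pair the samples could not be told from these values. Over 28 same-numbered pairs of arrays, deviations from group means correlated between -0.496 and 0.517, 8 of them over 0.1. Between 0 and 4 of 8 samples in a comparison correlated best with their own number. With the replicate number as a block, no call on the 8 genes changed: 1, 0, 0 and 0 were called against saline with SPC4955, SPC3833, SPC4061 and SPC3847, and 2, 1 and 1 between oligonucleotides. Over the whole table the block gave 1286, 1399, 2204 and 574 genes against saline, and 1816, 1527 and 1313 between oligonucleotides.

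The log2 values that changed sign were at most 0.38 in size under the alternative, about the size of the Cyp1a2 change called with SPC4955 (-0.38), and the largest were those of Cyp2b10. For SPC4955 against saline, Cyp2b10 was 0.084 under quality weights and 0.38 without the 2 or the 3 arrays that stood apart, and Nr1i2 was 0.0013 and 0.057; leaving out each array gave -0.20 to 0.34 for Cyp2b10 and -0.10 to 0.10 for Nr1i2. For SPC3833 against saline, median centring gave -0.018 for Cyp1a1, -0.015 for Cyp1a2 and -0.00067 for Cyp2e1, and quantile normalization gave -0.047 for Cyp1a1. Quality weights gave 0.055 for Cyp2b10 and -0.011 for Cyp1a1, the covariate gave 0.048 and -0.013, and without the 2 or 3 arrays Cyp2b10 was 0.030 and Cyp1a2 -0.0035. Leaving out each array gave -0.063 to 0.081 for Cyp2b10, -0.025 to 0.088 for Cyp1a1 and -0.022 to 0.051 for Cyp1a2. For SPC4061 against saline, Por was 0.011 after median centring, Cyp2b10 -0.046 and Cyp1a1 0.027 after quantile normalization, and Cyp2b10 -0.14 and Cyp1a1 0.043 with the covariate. Leaving out each array gave -0.036 to 0.082 for Cyp2b10, -0.13 to 0.089 for Cyp1a1 and -0.065 to 0.017 for Por. For SPC3847 against saline it gave -0.12 to 0.050 for Cyp3a11, -0.15 to 0.017 for Cyp1a1 and -0.0085 to 0.039 for Cyp2e1. For SPC4955 against SPC4061, Cyp3a11 was -0.033 after median centring, Cyp2b10 was 0.013 after quantile normalization, 0.056 with weights, 0.048 with the covariate and 0.32 without the 2 or 3 arrays, and Cyp1a1 was 0.032 without these. Leaving out each array gave -0.22 to 0.32 for Cyp2b10, -0.011 to 0.055 for Cyp3a11, -0.18 to 0.044 for Cyp1a1 and -0.031 to 0.0032 for Cyp2e1. For SPC4955 against SPC3847, Cyp1a1 was 0.028 after quantile normalization, 0.029 with the covariate, 0.076 with weights, 0.058 without the 2 arrays, 0.14 without the 3 and -0.10 to 0.064 with each array left out. For SPC4061 against SPC3847, Por was -0.023 after quantile normalization and Cyp1a1 -0.063 to 0.16 with each array left out.

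The genes called over the whole table lay between 657 and 2017 for SPC4955 against saline (1473 in the full fit), 994 and 2527 for SPC3833 (1579), 1663 and 5104 for SPC4061 (2565) and 40 and 1677 for SPC3847 (745), the 40 in the fit of the 8 arrays compared. They lay between 1433 and 3336 for SPC4955 against SPC4061 (1957), 603 and 2494 for SPC4955 against SPC3847 (1689), 717 and 2076 for SPC4061 against SPC3847 (1507) and 4195 and 9331 over the 5 groups (5329).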
